A study of Mus musculus with 6 samples.

Results

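Lipid droplets are the neutral lipid stores of the cell. Triglyceride is made in the membrane of the endoplasmic reticulum (ER), collects between its leaflets and buds into the cytosol as a droplet coated by perilipins, and lipases take it apart again in steps. METTL7 proteins have been described on the ER and on droplets, and for this reason 10 genes of droplet coating and triglyceride turnover were followed in cells that express METTL7A1. They comprised the coat genes Plin2, Plin3 and Plin4, the synthesis genes Lpin1, Dgat1 and Dgat2, and the lipolysis genes Pnpla2, Abhd5, Hilpda and Mgll. Members were picked by gene symbol, and all 10 were among the 48587 genes of the count table. Only the RNA of these genes was read here, and droplets, lipids and perilipin proteins were not. In NMuMG cells, an immortalized mouse mammary gland line, the study found no specific staining for the PLIN2 protein.

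Total RNA was sequenced from 4T1 cells, a mouse mammary gland carcinoma line that the study describes as mesenchymal-like. The METTL7A1 group (3 libraries) carried full-length Mettl7a1 cDNA in the vector pBICEP-CMV-2, stably transfected and kept under G418, and the mock group (3 libraries) carried the empty vector. The sources used here do not state whether each group was 1 clone or a pool of transfectants, so the transgene and differences between transfected populations cannot be told apart. The labels call the libraries of a group biological triplicates without naming separate cultures, and p values measure the spread between these libraries.

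Library totals ran from 18386780 to 28459338 counts. Mock replicate 1 stood apart in that AY036118 was its most abundant gene, with 13.1% of its counts, where mt-Rnr2 led the other 5 libraries (7.72% to 12.5%), and its TMM scaling factor was the lowest at 0.8981 (0.9667 to 1.082 in the others). Calls that changed without this library are given with and without it. Mettl7a1 stood at 30, 30 and 29 counts in mock replicates 1 to 3 and at 6355, 11358 and 10398 counts in METTL7A1 replicates 1 to 3, so each library followed its label. Of 7 mammary epithelial markers, 6 were expressed and Krt5 had 0 counts in all libraries. Their sum was 1450 to 1770 cpm (counts adjusted for library size with TMM factors) in mock and 1460 to 1730 cpm in METTL7A1 cells, but Krt14, a basal keratin, fell from 37.8 to 9.79 cpm (log2 fold change -1.94, SE 0.09, edgeR adjusted p = 7.54e-08). No adipocyte marker exceeded 5 counts in any library, Adipoq, Lep and Retn included, and Cidec was at 0 throughout. The 6 macrophage markers summed to 5.9 to 6.8 cpm in mock and to 14.1 to 16.5 cpm in METTL7A1 cells, nearly all of it Cd68 and Csf1r, while Adgre1 was at 0 in 5 of the 6 libraries and Lyz2 and Itgam had at most 3 counts. The 6 fibroblast markers summed to 17.5 to 19.8 and 23.9 to 26.7 cpm, nearly all of it Pdgfra, with Lum at 0. The 4 endothelial markers summed to 0.413 to 0.644 cpm in mock and 0.808 to 0.973 cpm in METTL7A1 cells. None of these 4 exceeded 16 counts in any library. The part of these markers in the results was not tested. In bulk RNA, fewer cells that express a gene and less of its RNA per cell cannot be told apart.

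Of the 10 genes, 8 passed the abundance filter (at least 1 cpm in at least 3 libraries) and were tested. Hilpda, Plin3, Plin2, Abhd5 and Lpin1 were higher in METTL7A1 cells, Dgat2 was lower, and Dgat1 and Pnpla2 were not called. Plin4 and Mgll were near 0 in both groups and were not tested. A gene was called at a Benjamini-Hochberg adjusted p under 0.05 over all 13166 tested genes (edgeR quasi-likelihood test). Thus 6 of the 8 tested members were called, 5 higher and 1 lower, where 42.1% of all tested genes were called, 21.1% higher and 21.0% lower. In 7 of the 8 the METTL7A1 libraries lay wholly above or below the mock libraries, as in 51.6% of all tested genes. The changes were small: none of the 8 passed the thresholds of the study (adjusted p under 0.01 with a log2 fold change over 1.5), which 2.48% of all genes did. The median log2 fold change of the 8 was 0.33, against -0.03 over all tested genes. Since a large share of all genes was called, nothing particular to the members is read from these counts.

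The start regions of 4 of the 5 genes that rose are shown first, because the results turn on these genes. Sequences are the RefSeq promoters of build GRCm38.p6, from 250 bases before to 50 bases after an annotated start, which matched 8 of the 10 members (Dgat1 and Dgat2 had no entry). Capitals mark ACGTG or GCGTG on either strand, the core of the element bound by hypoxia-inducible factors. Searching either strand also finds the palindrome CACGTG (the E-box) as a pair of overlapping ACGTG matches. For Hilpda the second of its annotated starts is shown, 138 bases inside the gene model of the count table. Its first annotated start, whose window is not shown, is the start that matches this gene model.
Hilpda, chr6:29272376-29272675, plus strand: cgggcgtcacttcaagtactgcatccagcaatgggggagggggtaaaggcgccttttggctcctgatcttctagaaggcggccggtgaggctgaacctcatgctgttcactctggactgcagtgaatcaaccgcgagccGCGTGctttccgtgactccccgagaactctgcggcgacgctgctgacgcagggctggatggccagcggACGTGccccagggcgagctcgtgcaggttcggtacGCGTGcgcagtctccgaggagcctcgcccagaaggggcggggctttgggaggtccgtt
Plin2, chr4:86670010-86670309, minus strand: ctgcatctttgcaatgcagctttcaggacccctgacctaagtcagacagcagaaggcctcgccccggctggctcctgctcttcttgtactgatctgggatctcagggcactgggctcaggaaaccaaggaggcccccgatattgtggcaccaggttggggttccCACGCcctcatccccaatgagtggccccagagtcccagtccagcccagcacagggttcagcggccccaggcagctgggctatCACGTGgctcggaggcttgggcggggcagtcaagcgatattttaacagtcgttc
Plin3, chr17:56290462-56290761, minus strand: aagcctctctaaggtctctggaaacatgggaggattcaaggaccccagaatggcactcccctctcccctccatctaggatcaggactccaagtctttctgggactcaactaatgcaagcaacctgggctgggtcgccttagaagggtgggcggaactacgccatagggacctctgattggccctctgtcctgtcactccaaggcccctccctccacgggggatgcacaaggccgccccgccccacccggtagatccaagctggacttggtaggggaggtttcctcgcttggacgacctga
Abhd5, chr9:122351366-122351665, plus strand: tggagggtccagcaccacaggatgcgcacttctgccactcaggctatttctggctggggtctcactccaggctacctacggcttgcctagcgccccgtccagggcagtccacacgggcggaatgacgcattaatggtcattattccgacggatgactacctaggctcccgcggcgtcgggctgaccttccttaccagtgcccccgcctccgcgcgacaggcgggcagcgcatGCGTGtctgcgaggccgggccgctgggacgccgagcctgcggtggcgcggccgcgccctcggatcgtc

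Of these windows, those of Hilpda, Plin2 and Abhd5 held a core and that of Plin3 held none, where 43.8% of 32851 RefSeq promoters of the same length hold ACGTG or GCGTG. The Hilpda window shown has 1 ACGTG and 2 GCGTG matches, and the window of its other start, which overlaps it, 1 GCGTG match. The Plin2 window has 1 E-box, and so has a window of Mgll, a gene that was not called higher. An E-box is present in 7.15% of all promoters. AGGTCA, the half-site of nuclear receptors such as the PPARs, occurred once each in the Plin2, Abhd5 and Lpin1 windows (16.3% of all promoters). TGATGNAAT, a composite site of ATF4 and C/EBP factors, occurred in no member window (0.965% of all promoters). Cores were not limited to genes that rose. The windows of both annotated starts of Mgll held them. The first had 1 E-box, counted as 2 ACGTG matches, and 2 GCGTG matches, and the second had 1 ACGTG and 6 GCGTG matches. The windows of Pnpla2, Plin4 and Lpin1 held none. GGGCGG boxes, which 35.7% of all promoters hold, occurred in the windows of Plin3 (3), Pnpla2 (2), Plin2, Abhd5, Hilpda and Mgll. These are matches of letters and not sites shown to be bound. The RefSeq start of Lpin1 lies 21196 bases from the start of its gene model in the count table, and its window is not shown.

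Levels were compared between genes per exon length, as RPKM (cpm divided by exon length in kilobases) over all 6 libraries. Plin2 was the most abundant member by far, at 57.8 RPKM on average with a range of 44.1 to 74.4, a level above that of 93.2% of tested genes. Plin3 (12.7 RPKM), Dgat1 (10.8), Hilpda (9.93), Abhd5 (7.37), Pnpla2 (5.99) and Lpin1 (5.04) followed, and the ranges over the 6 libraries of neighbours in this order overlapped, that of Hilpda running from 5.91 to 13.5 RPKM. The order of Dgat1 and Hilpda differed by group, with Dgat1 at 9.88 and Hilpda at 7.14 RPKM in mock, and Dgat1 at 11.7 and Hilpda at 12.7 RPKM in METTL7A1 cells. Dgat2 lay under all of these at 1.65 RPKM (range 1.02 to 2.34), and Mgll and Plin4 averaged 0.0437 and 0.0337 RPKM. All 10 genes together summed to 86.4 to 100 RPKM in the mock libraries and to 116, 130 and 137 RPKM in METTL7A1 replicates 1 to 3, and Plin2 made up 49.9% to 54.4% of that sum in each library.

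**Figure D1:**
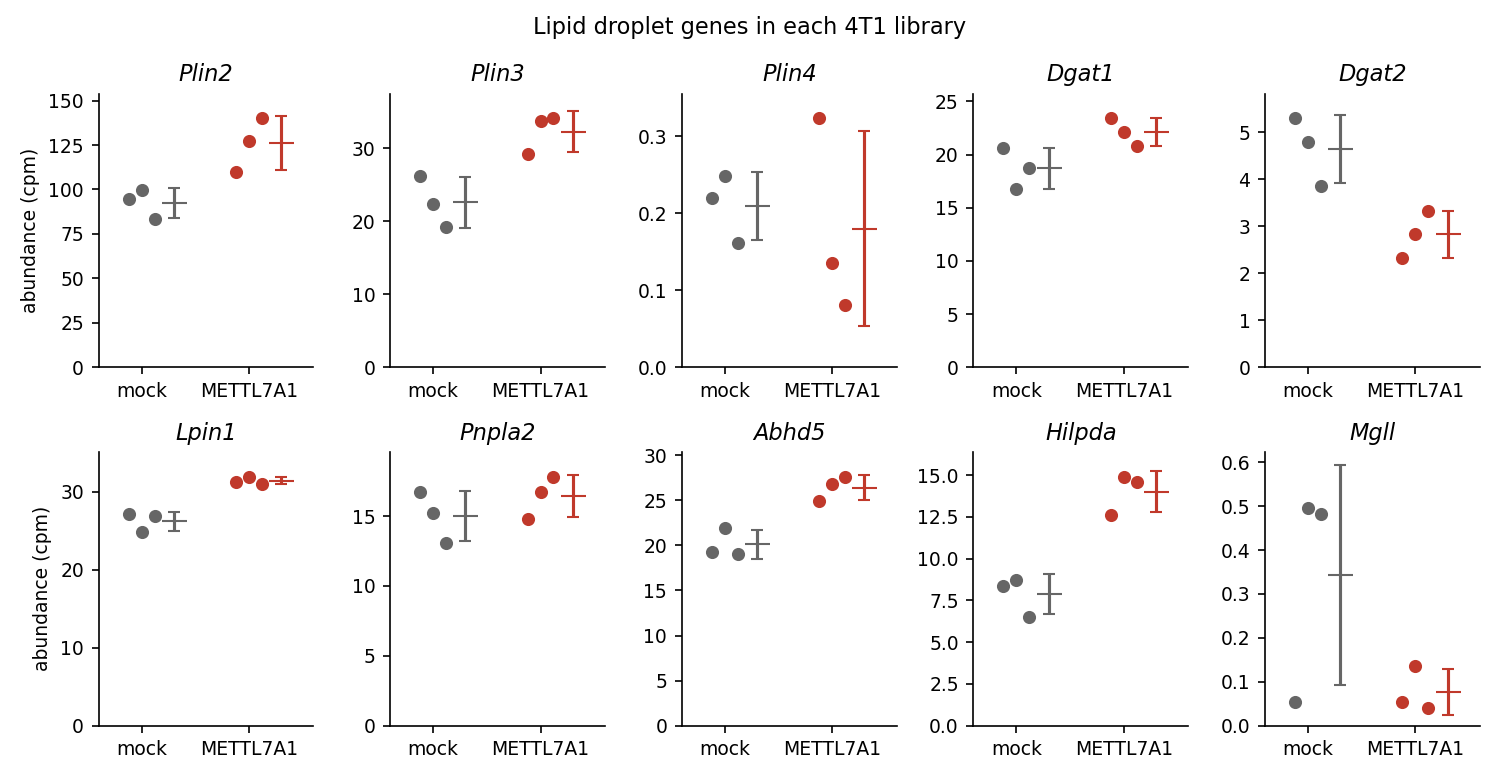
Abundance (cpm, linear axes from 0) of the 10 lipid droplet genes in each library, mock in grey and METTL7A1 in red, with the mean and SD of each group (n = 3) beside the points. Hilpda, Plin2, Plin3, Abhd5 and Lpin1 lie higher and Dgat2 lower in the METTL7A1 libraries without overlap. Dgat1, which was not called, also lies higher without overlap, by a narrow gap. Pnpla2 overlaps, and Plin4 and Mgll stay under 0.5 cpm.

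The coat genes were examined first. Plin2 (chromosome 4, 86656565 to 86670060) encodes the perilipin that coats droplets in most cell types and whose protein is stabilised by bound lipid. It stood at 94.5, 99.6 and 83.3 cpm in mock replicates 1 to 3 and at 110, 127 and 140 cpm in METTL7A1 replicates 1 to 3. The groups did not overlap, and METTL7A1 replicate 1 was nearest to mock. The group means were 92.5 ± 8.34 cpm in mock and 126 ± 15.3 cpm in METTL7A1 cells (SD, n = 3 each). This 1.36-fold rise equals 0.45 on the log2 scale (SE 0.1, edgeR adjusted p = 0.00388).

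Plin3 (chromosome 17, 56278962 to 56290511), an exchangeable perilipin that moves from the cytosol onto nascent droplets, rose about as much. Its level was 26.2, 22.4 and 19.2 cpm in mock and 29.2, 33.7 and 34.1 cpm in METTL7A1 replicates 1 to 3. The log2 fold change was 0.52 (SE 0.11, edgeR adjusted p = 0.00346), a 1.44-fold rise. The log2 ratio of Plin2 to Plin3 counts per exon length was 2.23 ± 0.17 in mock and 2.15 ± 0.07 in METTL7A1 cells (SD, n = 3 each), and the groups overlapped (exact two-sided permutation test, p = 0.4, where 3 against 3 libraries cannot go below 0.1). Plin2 supplied 80.4% to 83.5% of the summed RPKM of the 3 coat genes across the 6 libraries.

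Plin4 (chromosome 17, 56100591 to 56109803), a perilipin known mainly from adipocytes and muscle, had 4, 6 and 4 counts in mock and 6, 4 and 2 counts in METTL7A1 cells. A change was not detectable at this depth. Without the abundance filter its log2 fold change was -0.27 (SE 0.68, edgeR adjusted p = 0.822), and the sign turned to 0.02 without METTL7A1 replicate 3. An exon of Plin4 overlaps Hdgfrp2 on the opposite strand, which had up to 1991 counts in a library. The remaining perilipins were as scarce, with 3 counts of Plin1 and 3 of Plin5 summed over all libraries, so Plin2 and Plin3 were the perilipin genes that passed the filter.

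Triglyceride synthesis ends with the removal of phosphate from phosphatidate and the addition of a last acyl chain. Lpin1 (chromosome 12, 16535669 to 16589770) encodes lipin 1, a phosphatidate phosphatase that makes diacylglycerol and also acts as a transcriptional coactivator. Its level was 27.1, 24.8 and 26.9 cpm in mock and 31.3, 31.9 and 31.0 cpm in METTL7A1 replicates 1 to 3, the tightest of the members within METTL7A1 cells. The log2 fold change was 0.26 (SE 0.07, edgeR adjusted p = 0.0161), a 1.2-fold rise. The call was lost without mock replicate 2 (0.22, edgeR adjusted p = 0.0769) and without METTL7A1 replicate 2 (0.25, edgeR adjusted p = 0.0881). Its paralogs were not called, Lpin2 with a log2 fold change of 0.02 (SE 0.07) and Lpin3 of 0.15 (SE 0.12). The log2 ratio of Lpin1 to Lpin2 was -1.31, -1.31 and -1.25 in mock and -1.1, -1.01 and -1.04 in METTL7A1 cells. These groups did not overlap (exact two-sided permutation test, p = 0.1, 0.175 adjusted over the 7 pairs compared). Unadjusted, 3 against 3 libraries cannot give a p below 0.1. Lpin1 averaged 4.58 RPKM in mock and 5.49 RPKM in METTL7A1 cells, below Lpin2 (11.2 and 11.4) and above Lpin3 (3.68 and 4.1), and made up 23.1% to 26.9% of the summed lipin RPKM.

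Lpin1 moved against most genes of its wider chromosomal surroundings. The 40 nearest abundant genes on chromosome 12 (average log2 cpm over 2) had a median log2 fold change of -0.52, 37 of them were below 0 and 30 were called lower, while 38 of the 40 lay under the value of Lpin1. Within 15 Mb on either side, 2 of 63 abundant genes exceeded it. The 40 genes reached up to 12.1 Mb from Lpin1, and the closest genes were mixed. Of these, Trib2 (-0.528), E2f6 (-1.191) and Nol10 (-0.798) were called lower. Rock2 (-0.148), Pqlc3 (0.281), Pdia6 (-0.021), Gm22748 (-0.012) and Odc1 (-0.192), also among the closest, were not called. When each gene was offset by the median of its 40 neighbours, the log2 fold change of Lpin1 was 0.78 (edgeR adjusted p = 1.81e-05). The offset came from the same libraries and entered as a fixed value. Its own uncertainty is therefore not in this p value, and the neighbours of Lpin1 ran from -2.2 to 0.42. For the other tested members the neighbour medians lay between -0.12 and 0.09. With the offset 31.5% of all genes were called, and the same 6 members were called in the same directions. Lying above most neighbours was shared by the other members called higher. Hilpda exceeded all 40 of its neighbours on chromosome 6 (median -0.10), Plin3 exceeded 38 of its own, and Plin2 and Abhd5 exceeded 37 each.

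**Figure D2:**
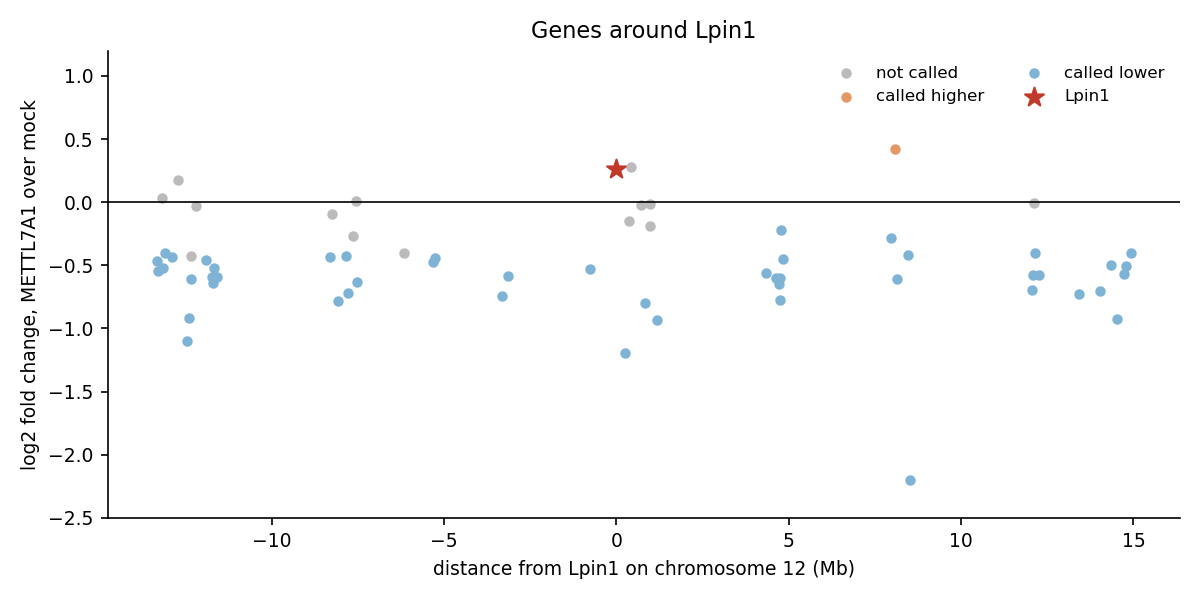
Log2 fold change (METTL7A1 over mock) of abundant genes within 15 Mb of Lpin1 on chromosome 12, against their distance from Lpin1 in Mb, with called genes in blue (lower) or orange (higher) and the rest in grey. Lpin1 (star, 0.26) lies above 61 of the 63 genes around it, most of which are below 0.

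Dgat1 and Dgat2 encode unrelated enzymes for the same last acylation of triglyceride synthesis, DGAT1 fixed in the ER and DGAT2 also able to act at the droplet surface. Dgat1 (chromosome 15, 76502015 to 76511951) stood at 20.6, 16.8 and 18.7 cpm in mock and at 23.4, 22.1 and 20.8 cpm in METTL7A1 replicates 1 to 3. These groups were separated by a narrow gap, and the log2 fold change of 0.25 (SE 0.1) was not called (edgeR adjusted p = 0.062). It was called without mock replicate 1 (0.33, edgeR adjusted p = 0.0348), without the 20 most abundant genes (0.26, edgeR adjusted p = 0.0475) and without the abundance filter (0.28, edgeR adjusted p = 0.0483), and stood at 0.15 with the neighbour offset (edgeR adjusted p = 0.257).

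Dgat2 (chromosome 7, 99153658 to 99182719) went the other way. It had 97, 116 and 96 counts in mock and 43, 84 and 82 counts in METTL7A1 replicates 1 to 3, or 5.3, 4.79 and 3.86 against 2.32, 2.84 and 3.33 cpm. The 2 groups did not overlap, and the log2 fold change was -0.7 (SE 0.19, edgeR adjusted p = 0.0134), a 1.62-fold fall. The call was lost without mock replicate 1 (-0.59, edgeR adjusted p = 0.0662) and without METTL7A1 replicate 2 (-0.7, edgeR adjusted p = 0.0552). The log2 ratio of Dgat1 to Dgat2, which does not depend on library scaling, was 2.21, 2.06 and 2.53 in mock and 3.58, 3.21 and 2.9 in METTL7A1 cells. The difference of 0.96 was the largest among the 5 pairs of tested genes (exact two-sided permutation test, p = 0.1, 0.175 adjusted over the 7 pairs compared). Dgat2 thus made up 14.7% to 19.3% of the summed Dgat RPKM in mock and 7.62% to 11.8% in METTL7A1 cells.

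**Figure D3:**
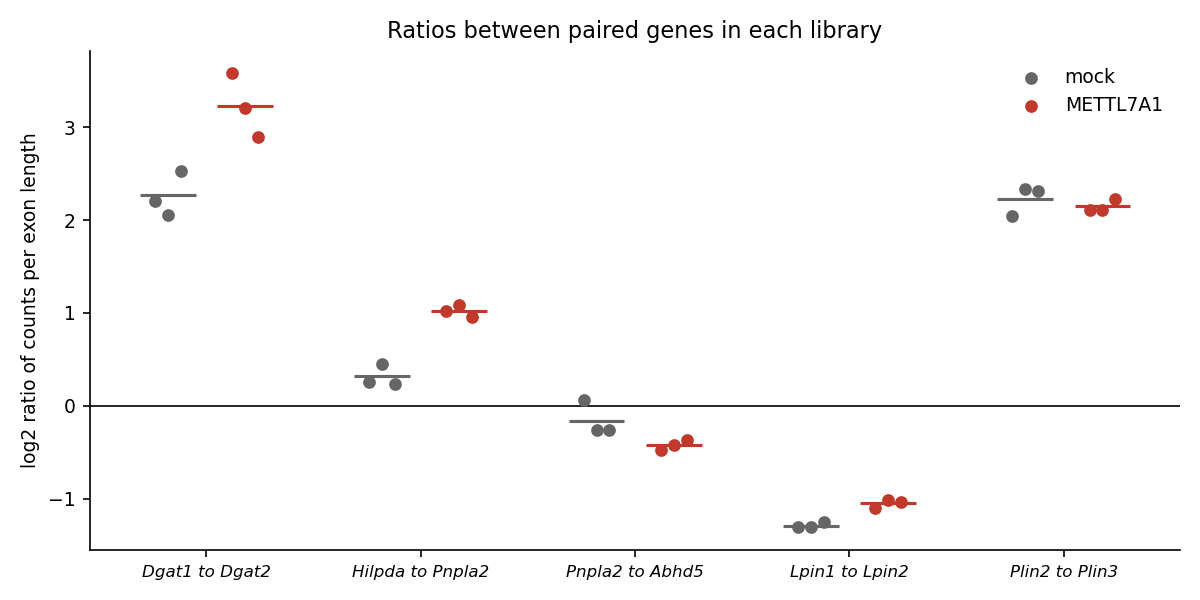
Log2 ratio of counts per exon length between paired genes in each library, mock in grey and METTL7A1 in red, with bars at the group means (n = 3 each). The ratios of Dgat1 to Dgat2, Hilpda to Pnpla2, Pnpla2 to Abhd5 and Lpin1 to Lpin2 do not overlap between the groups, and that of Plin2 to Plin3 does.

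Lipolysis starts with adipose triglyceride lipase (ATGL), encoded by Pnpla2, which is activated by ABHD5 (CGI-58) and inhibited by HILPDA. The lipase itself was not called. Pnpla2 (chromosome 7, 141455198 to 141460743) stood at 16.7, 15.2 and 13.1 cpm in mock and at 14.8, 16.7 and 17.8 cpm in METTL7A1 replicates 1 to 3, and the groups overlapped. The log2 fold change was 0.14 with a 95% interval of -0.11 to 0.39 (SE 0.11, edgeR adjusted p = 0.359), which leaves room for a rise as large as that of Lpin1.

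Both regulators of the lipase rose. Abhd5 (chromosome 9, 122351608 to 122381524) went from 19.3, 21.9 and 19.0 cpm in mock to 24.9, 26.8 and 27.6 cpm in METTL7A1 replicates 1 to 3. The log2 fold change was 0.4 (SE 0.09, edgeR adjusted p = 0.00402), a 1.32-fold rise without overlap. Hilpda (chromosome 6, 29272488 to 29275446), the small inhibitor of ATGL known as a hypoxia-inducible gene, had the largest change of the 8 tested members. It stood at 8.36, 8.75 and 6.52 cpm in mock and at 12.6, 14.9 and 14.6 cpm in METTL7A1 replicates 1 to 3, with a wide gap between the groups. The log2 fold change was 0.84 with a 95% interval of 0.55 to 1.13 (SE 0.13, edgeR adjusted p = 0.000503), a 1.79-fold rise. G0s2, which encodes another ATGL inhibitor, had 0 counts in all 6 libraries, which allows at most 0.102 to 0.164 cpm depending on the library (3 counts, counting error only).

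The ratios of the lipase to its regulators differed between the groups without overlap. The log2 ratio of Hilpda to Pnpla2 was 0.26, 0.45 and 0.24 in mock and 1.02, 1.09 and 0.96 in METTL7A1 cells, a difference of 0.7. The log2 ratio of Pnpla2 to Abhd5 was 0.06, -0.26 and -0.26 in mock and -0.48, -0.42 and -0.37 in METTL7A1 cells, a difference of -0.27 that was -0.16 without mock replicate 1. Each had an exact two-sided permutation p of 0.1 (0.175 adjusted over the 7 pairs), the smallest unadjusted p that 3 against 3 libraries allow.

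Mgll encodes monoacylglycerol lipase, the enzyme of the final step. Mgll (chromosome 6, 88724412 to 88828360) had 1, 12 and 12 counts in mock and 1, 4 and 1 counts in METTL7A1 replicates 1 to 3. Mock replicate 1 thus lay within the METTL7A1 libraries. Without the abundance filter, where 20.9% of 28601 genes were called, its log2 fold change was -2.05 (SE 0.68, edgeR adjusted p = 0.0161). That call was lost without mock replicate 2 (-1.77, edgeR adjusted p = 0.125), mock replicate 3 (-1.81, edgeR adjusted p = 0.103) or METTL7A1 replicate 3 (-1.78, edgeR adjusted p = 0.0779), and the ratio of Pnpla2 to Mgll overlapped between groups (exact two-sided permutation test, p = 0.3). Counts this low do not settle whether Mgll changed.

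**Figure D4:**
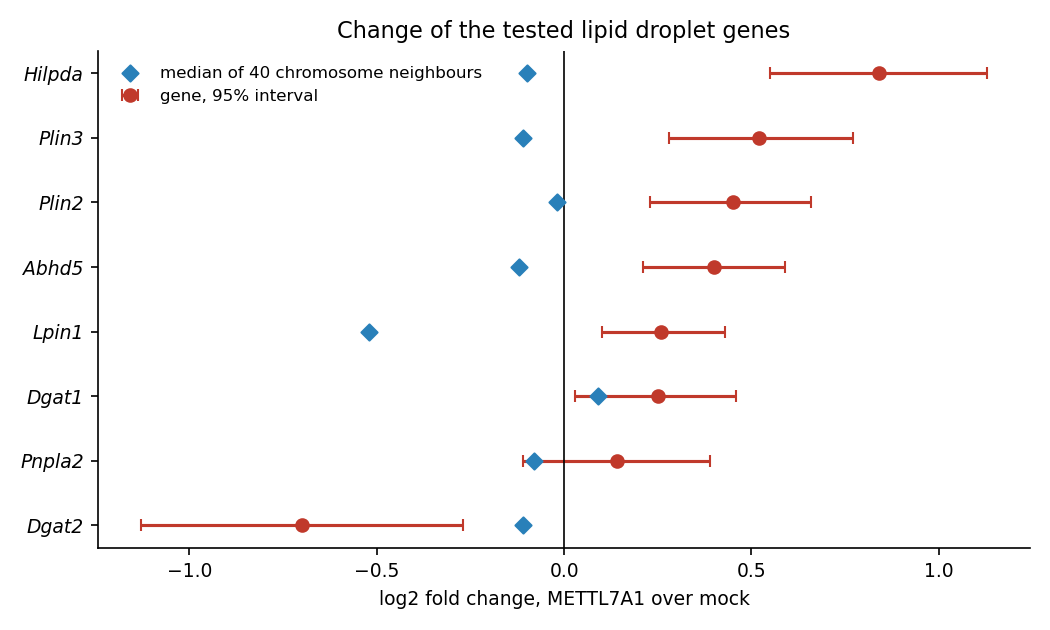
Log2 fold change (METTL7A1 over mock) of the 8 tested members with 95% intervals in red, and the median of the 40 nearest abundant genes of each on its chromosome as blue diamonds. Hilpda at 0.84 and Dgat2 at -0.7 mark the ends, and Lpin1 is the member whose neighbours lie furthest from 0 (-0.52).

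Spread within groups differed among the members. The coefficient of variation of the cpm values in METTL7A1 cells ran from 1.47% for Lpin1 and 5.15% for Abhd5 to 17.8% for Dgat2 among the tested genes. In mock cells it was 4.79% for Lpin1 and 15.7% for Dgat2, where counting alone gives about 4.12% and 9.85%. Counting error was computed in mock only. The 1.47% of Lpin1 lies below its 4.12% there, so the low spread is not read as a trait of the gene. For Plin2 counting alone would give 2.2% against the 9.02% measured in mock, a spread above counting error.

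The wider set of droplet and triglyceride genes was read in the same fit, over 6 lists with 96 genes in the table, of which 69 were tested. Of these 24 were called higher and 13 lower, 53.6% against 42.1% of all tested genes, and the median log2 fold change was 0. Among proteins of the droplet and its formation, 12 of 20 were tested, 6 rose and 2 fell (median 0.07), 66.7% called against the same 42.1%. Mettl7b, a paralog of Mettl7a1 whose protein has been described on droplets, rose from 7.2 to 46.7 cpm (log2 fold change 2.7, SE 0.1, edgeR adjusted p = 1.6e-08). Aifm2, whose product FSP1 resists lipid peroxidation, rose by 1.36 (SE 0.11), and Rab18, a small GTPase of droplets and ER, by 0.73 (SE 0.09). With each gene offset by its chromosome neighbours Aifm2 stood at 0.86 and Rab18 at 0.41, both still called. Ldah, a droplet-associated hydrolase, and Faf2, an ER and droplet factor of protein degradation, fell by 0.43 (SE 0.08) and 0.4 (SE 0.08), and with the neighbour offset their values were 0.03 and 0.12 and no longer called.

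In the list of triglyceride and sterol ester synthesis, 15 of 18 genes were tested, 4 rose and 2 fell (median 0.03), so that 40% were called, close to the 42.1% of all tested genes. Agpat9, which encodes glycerol-3-phosphate acyltransferase 3, rose from 8.13 to 16 cpm (log2 fold change 0.98, SE 0.12, edgeR adjusted p = 9.2e-05). Agpat3 rose by 0.63 (SE 0.09), Agpat5 by 0.36 (SE 0.08) and Acsl3, an acyl-CoA synthetase of nascent droplets, by 0.36 (SE 0.08). With the neighbour offset Agpat3 stood at 0.33 (edgeR adjusted p = 0.0139) and the call of Agpat5 was lost at 0.2 (edgeR adjusted p = 0.0771). Acsl6 fell from 20.4 to 3.9 cpm (-2.37, SE 0.12, edgeR adjusted p = 2.28e-07). Soat1, which makes sterol esters, stood at 230 cpm in mock and 235 cpm in METTL7A1 cells and was not called (0.03, SE 0.08).

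Other lipases and hydrolases included 11 tested genes of 14, with 7 higher and 2 lower (median 0.3), or 81.8% called against 42.1% of all tested genes. Lipg, the endothelial lipase, rose from 81.6 to 187 cpm (log2 fold change 1.2, SE 0.09, edgeR adjusted p = 2.33e-06), Lipa, the lysosomal acid lipase, by 0.64 (SE 0.11), Abhd4 by 0.5 (SE 0.12), Pnpla3 by 0.72 (SE 0.18) and Ddhd2 by 0.3 (SE 0.07). The calls of Pnpla3 (edgeR adjusted p = 0.0796) and Ddhd2 (edgeR adjusted p = 0.144) were lost with the neighbour offset. Lipe, the hormone-sensitive lipase that follows ATGL, went from 8.33 to 10.9 cpm (0.39, SE 0.11, edgeR adjusted p = 0.018), a call lost at 0.34 without mock replicate 1 (edgeR adjusted p = 0.061), 0.41 without METTL7A1 replicate 2 (edgeR adjusted p = 0.0567) and 0.36 without METTL7A1 replicate 3 (edgeR adjusted p = 0.0577). With the neighbour offset 4 of the 11 genes were called, where 31.5% of all genes were, and Abhd4 stood at 0.83. Of the fatty acid uptake and oxidation genes, 15 of 20 were tested, 3 rose and 2 fell (median -0.08), 33.3% called against 42.1%. Slc27a1, a fatty acid transporter, rose from 16.8 to 35.6 cpm (1.09, SE 0.1), Acadl by 0.52 (SE 0.08) and Cpt1a by 0.36 (SE 0.1), while Hadha and Hadhb, the subunits of the mitochondrial trifunctional protein, fell by 0.4 (SE 0.07) and 0.5 (SE 0.07). The call of Cpt1a was lost without METTL7A1 replicate 2 (edgeR adjusted p = 0.0833).

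**Figure D5:**
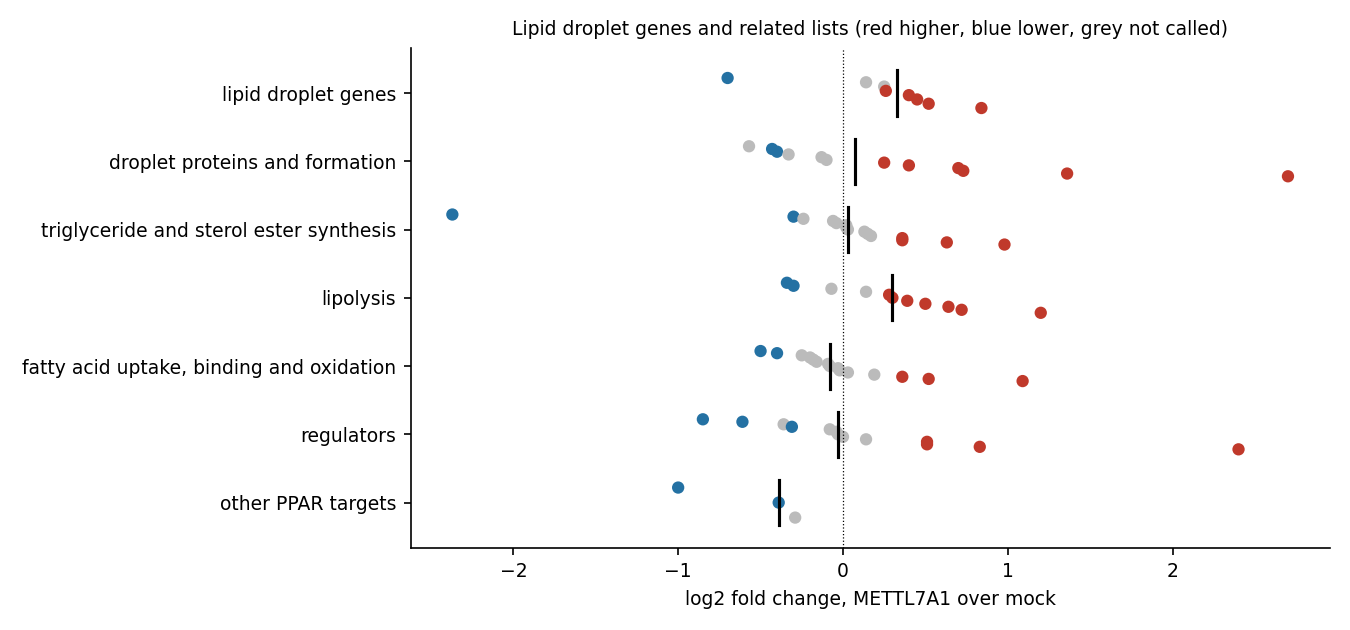
Log2 fold change (METTL7A1 over mock) of every tested gene of the lipid droplet members and of 6 related lists, 1 point a gene, red called higher, blue called lower and grey not called, with a black bar at the list median. The medians are 0.33 for the members, 0.3 for lipolysis and between -0.39 and 0.07 for the other lists.

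Of the regulators of these genes, 13 were tested, 4 were higher and 3 lower (median -0.03), or 53.8% called, where 42.1% of all tested genes were called (21.1% higher and 21.0% lower). Srebf2 rose by 0.51 (SE 0.07), Atf4 by 0.83 (SE 0.08) and Ddit3 by 2.4 (SE 0.14), whereas Hif1a fell by 0.61 (SE 0.08) and Ppard by 0.31 (SE 0.09). Hif1a lies on chromosome 12 with a neighbour median of -0.47, and with the neighbour offset it was not called (-0.14, edgeR adjusted p = 0.209). Ppara, Pparg and Epas1 were not tested, and Epas1 had 0 counts in every library. With the offset Srebf2 stood at 0.25 (edgeR adjusted p = 0.0195). Among 6 further PPAR targets, 3 were tested and 2 of them fell (66.7%), where 21.0% of all tested genes were called lower. Ucp2 went from 37.2 to 18.6 cpm (-1, SE 0.08) and Klf10 fell by 0.39 (SE 0.07, with the offset -0.24). With only 3 genes, the list median of -0.39 is the value of Klf10.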

How the data were processed

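The authors trimmed read ends, aligned read pairs of stranded, ribosome-depleted libraries to mouse genome build mm10 with STAR 2.5.3a and deposited raw counts per gene from featureCounts, 1 column per library. How strand and multiply mapped reads were counted is not given in the sources used here. Exon lengths and coordinates (mm10, from 1) come from the same table, and groups from the sample titles.

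Counts were analysed in R 4.3.3. Genes with at least 1 cpm in at least 3 libraries (13166) were scaled by TMM and tested with glmQLFit and glmQLFTest of edgeR 4.0.16 with no covariate, and p values were adjusted by Benjamini-Hochberg over all of them. SE was the log2 fold change divided by the square root of F. Ratios between pairs used counts plus 0.5 and an exact permutation test over libraries. The fit was tested on simulated data. Alternatives were RLE and upper quartile scaling, other filters, DESeq2 1.42.0, voom of limma 3.58.1, a replicate block, omission of single libraries or of the 20 most abundant genes, and an offset by 40 chromosome neighbours. Omitting libraries in the unfiltered fit was added after seeing the data. The text names all members, Mettl7a1, genes of the fixed pairs and the 5 called genes of smallest p in each wider list. Exceptions, chosen after their values were seen, were AY036118, mt-Rnr2, Hdgfrp2, Lpin3, Soat1, Lipe, G0s2, Plin1, Plin5, Ppara, Pparg and Epas1. So were the genes named as closest to Lpin1. In the same way the named cell type markers, Krt14 among them, were picked from the marker lists. Members, lists and tests were chosen with earlier results of these data known.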

Additional observations from a re-analysis of the deposited data

How the results depend on the processing

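Of the members, 6 were called with RLE or upper quartile scaling, with DESeq2 or voom, with 10 or more counts required of each library and with the neighbour offset. Of all genes, 5537 were called in the main fit and 4146 (neighbour offset) to 5636 (upper quartile scaling) under these settings. The number of members called was 7 without the 20 most abundant genes, where 5606 of all genes were called. It was 8 without the abundance filter, where 5988 of 28601 genes were called. When a library was left out it was 4 to 6, lowest without METTL7A1 replicate 2, where 3761 of all genes were called. At the thresholds of the study, which ask for a larger change, 0 members, 3 genes of the wider lists and 326 of all genes were called. Hilpda, Plin2, Plin3 and Abhd5 were called under all 15 alternatives, with log2 fold changes of 0.73 to 0.94, 0.36 to 0.54, 0.43 to 0.65 and 0.37 to 0.52. Pnpla2 was called under none of them (0.06 to 0.23). With the neighbour offset Ldah (0.03) and Faf2 (0.12) changed sign, as did Lpin3 (-0.03). With a library left out, the sign turned for Lpin2 (-0.02 to 0.07), Soat1 (0 to 0.09) and, in the unfiltered fit, Plin4 (-0.84 to 0.02). None of these was called where its sign turned. The cause was not tested. Depth limits Plin4 and Mgll, with at most 12 counts in a library.

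Libraries that share a replicate number did not deviate together. Their deviations from the mean of their group had correlations of -0.14, 0.19 and -0.36, and 1 of 6 libraries correlated best with its own number. With the replicate block 6 members, 36 genes of the wider lists and 4810 of all genes were called, Mettl7a1 stayed at 8.17, and no named gene changed its call.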
